A study of Homo sapiens with 9 samples.

Results

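The vacuolar H+-ATPase (V-ATPase) and the proteins that sit in the lysosomal membrane, with the soluble lysosomal protein NPC2, form a set of 34 genes. These were chosen by name and by having at least 10 counts in at least 3 of the 9 libraries. All 34 listed genes met that minimum, out of 16030 genes that did so among 63187 in the count table. They comprise 8 subunits of the V1 sector, 6 subunits of the V0 sector, 2 accessory proteins, 7 membrane glycoproteins and related proteins, 6 ion channel or antiporter genes, and 5 genes of cholesterol, cystine and amino acid handling together with CLN3. Their levels were followed in BEAS-2B, an immortalized human bronchial epithelial line, by poly-A RNA sequencing. Control cells were left untreated, PG/VG cells received aerosol condensate of propylene glycol with vegetable glycerine, the carrier liquid, and EC cells received that of an e-cigarette liquid that also held 18 mg/ml nicotine and a Virginia tobacco flavour. Both condensates were used at 2% (v/v) for 24 h. Each condition had 3 libraries, numbered 2, 3 and 4, and the number is also the batch in the sample labels. All libraries came from a single cell line grown in medium with serum, and the EC liquid differed from PG/VG in nicotine and flavour together, so these cannot be told apart. The carrier proportions of the commercial EC liquid are not given, and each liquid had its own coil and atomizer. Such differences cannot be separated from nicotine and flavour either. What the batch stands for beyond its number is not given in the sources used here.

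Lysosomes are kept acidic by the V-ATPase, a rotary proton pump. Its V1 sector lies on the cytosolic side and splits ATP, and its V0 sector lies in the membrane and carries protons through it. The glycoproteins LAMP1 and LAMP2 line the inside of the membrane, channels and antiporters release calcium or balance the charge that the pump builds up, and transporters return the products of digestion to the cytosol. The genes of many of these proteins are known targets of TFEB and its relatives, which bind an element with the core CACGTG in promoters.

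That core was searched in the promoter windows, each running from 250 bases before a transcription start to 50 bases after it, of the RefSeq table for GRCh38. It is its own reverse complement, so a match counts for both strands. Of the 34 genes, 27 had an entry, and those without were ATP6V1A, ATP6V1B2, ATP6V1C1, ATP6V1H, ATP6V0E1, LAMP2 and LAPTM4B. CACGTG was present in the windows of 8 of the 27 genes (29.6%), against 8.77% of all genes and 7.26% of all 35116 promoter windows. The longer palindrome TCACGTGA, which contains it, was present in 5 of the 27 (18.5%), against 1.18% of all genes and 0.98% of all windows. Here all genes means every gene of the promoter table, expressed in these cells or not, whereas the members had passed a count minimum. The lines below give 1 match for each of the 8 genes, shown because they are the sequences these members share, as 30 bases on the strand of the gene with the 6 matched bases in capitals.
ATP6V1G1, chr9:114587699-114587728, plus strand, 58 bases before the start: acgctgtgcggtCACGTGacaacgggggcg
ATP6V0B, chr1:43974891-43974920, plus strand, 57 bases before the start: ccggcgtggggtCACGTGgtaccggcgcat
ATP6V0D1, chr16:67481199-67481228, minus strand, 59 bases before the start: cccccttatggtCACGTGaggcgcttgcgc
LAMP1, chr13:113297199-113297228, plus strand, 28 bases before the start: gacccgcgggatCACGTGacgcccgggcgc
CD63, chr12:55729172-55729201, minus strand, 180 bases before the start: ccgggtaggggcCACGTGgccctggccggg
MCOLN1, chr19:7522571-7522600, plus strand, 41 bases before the start: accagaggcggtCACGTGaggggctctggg
CLCN7, chr16:1475038-1475067, minus strand, 27 bases before the start: cccgtcgcgcgtCACGTGgccgccggcgcg
CLN3, chr16:28492087-28492116, minus strand, 30 bases before the start: aaaacctctgagCACGTGatgggggaacac
The genes with the palindrome of 8 bases were ATP6V1G1, ATP6V0D1, LAMP1, MCOLN1 and CLN3, the last at a second match that is not printed. A match describes the letters in the window and not a bound site.

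Library totals ranged from 16168260 to 24917838 counts on genes. The 3 control libraries, at 16168260, 16648310 and 17882770, were the shallowest. The 3 libraries of batch 4 stood apart from those of batches 2 and 3 for most members, as described further on, and the comparisons therefore rest on differences within batches. The epithelial keratins KRT8, KRT18 and KRT7 were abundant, and the summed level of 6 epithelial markers lay between 1460 and 2840 counts per 1000000 (CPM) in all libraries. In contrast, 8 markers of basal, secretory and ciliated airway cells stayed at or below 0.546 CPM in every library. KRT8, KRT18 and KRT7 were all lower in EC than in control, with log2 fold changes (LFC) of −0.25, −0.46 and −0.45 (edgeR adjusted p = 0.0177, 0.000125 and 0.000202). The remaining epithelial markers, KRT19, EPCAM and CDH1, were not called. The lowest of the 6 reached at most 1.59 CPM in any library. The sum of the 6 markers ran from 1780 to 2840 CPM in control, 1720 to 2740 in PG/VG and 1460 to 2290 in EC. Of 5 fibroblast markers, 2 were measurable, with summed levels of 72.8 to 149 CPM in control, 91.1 to 183 in PG/VG and 88.1 to 168 in EC, and 1 was called higher in EC and 2 in PG/VG than in control. Summed leukocyte markers reached at most 9.62 CPM and endothelial markers 7.77 CPM, and none of them was called. The part of these marker changes in the results below was not tested.

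In untreated cells, the members covered a wide range of expression, compared here as CPM per kilobase of exon. The length is that of all annotated exons of a gene merged, so the order between genes also depends on the annotation. CD63, a tetraspanin of late endosomes and exosomes, stood highest at 190 ± 56.5 (SD, n = 3), next to LAPTM4A at 186 ± 12.5, and their libraries overlapped. LAMP1 followed at 150 ± 13, with all 3 libraries below those of LAPTM4A. The most abundant pump subunits were ATP6V1F at 105 ± 42.8 and ATP6V0E1 at 83.6 ± 20.1, whose ranges, from 78.5 to 155 and from 69.2 to 106, overlapped. Further down, most neighbours in the order overlapped, as NPC2 at 44.2 ± 12.5 did with ATP6V1E1 at 47.1 ± 11.6. Steps without overlap to the next higher gene occurred at LAMP1, ATP6V1E1, MCOLN1, TMEM175, TPCN2 and CLN3. Within the V0 a subunits, ATP6V0A1 at 5.39 ± 2.01 was above ATP6V0A2 at 1.99 ± 0.055, and the ranges did not overlap. The lowest entries were the endolysosomal cation channel TPCN2 at 1.67 ± 0.0717 and CLN3 at 0.0442 ± 0.0213.

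CLN3, the gene of juvenile neuronal ceroid lipofuscinosis, had 5 to 17 reads per library. It met the minimum of 10 counts in 3 libraries only through the libraries of batch 4. Of its exon bases, 31.1% are shared with another annotated gene, and for ATP6V0C, which encodes the proton-carrying c subunit, the share is 76.3%. Reads that overlapped more than 1 gene had not been counted, so the levels of these genes, and to a lesser degree of TPCN2 (22.4% shared), ATP6V1F (20.6%) and CLCN7 (15.7%), are uncertain. ATP6V0C gave 9.72, 10.6 and 12.4 CPM in control, 3.36, 8.32 and 21.2 CPM in PG/VG, and 11.2, 6.94 and 17.1 CPM in EC. The PG/VG libraries thus enclosed the range of the other conditions.

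**Figure D1:**
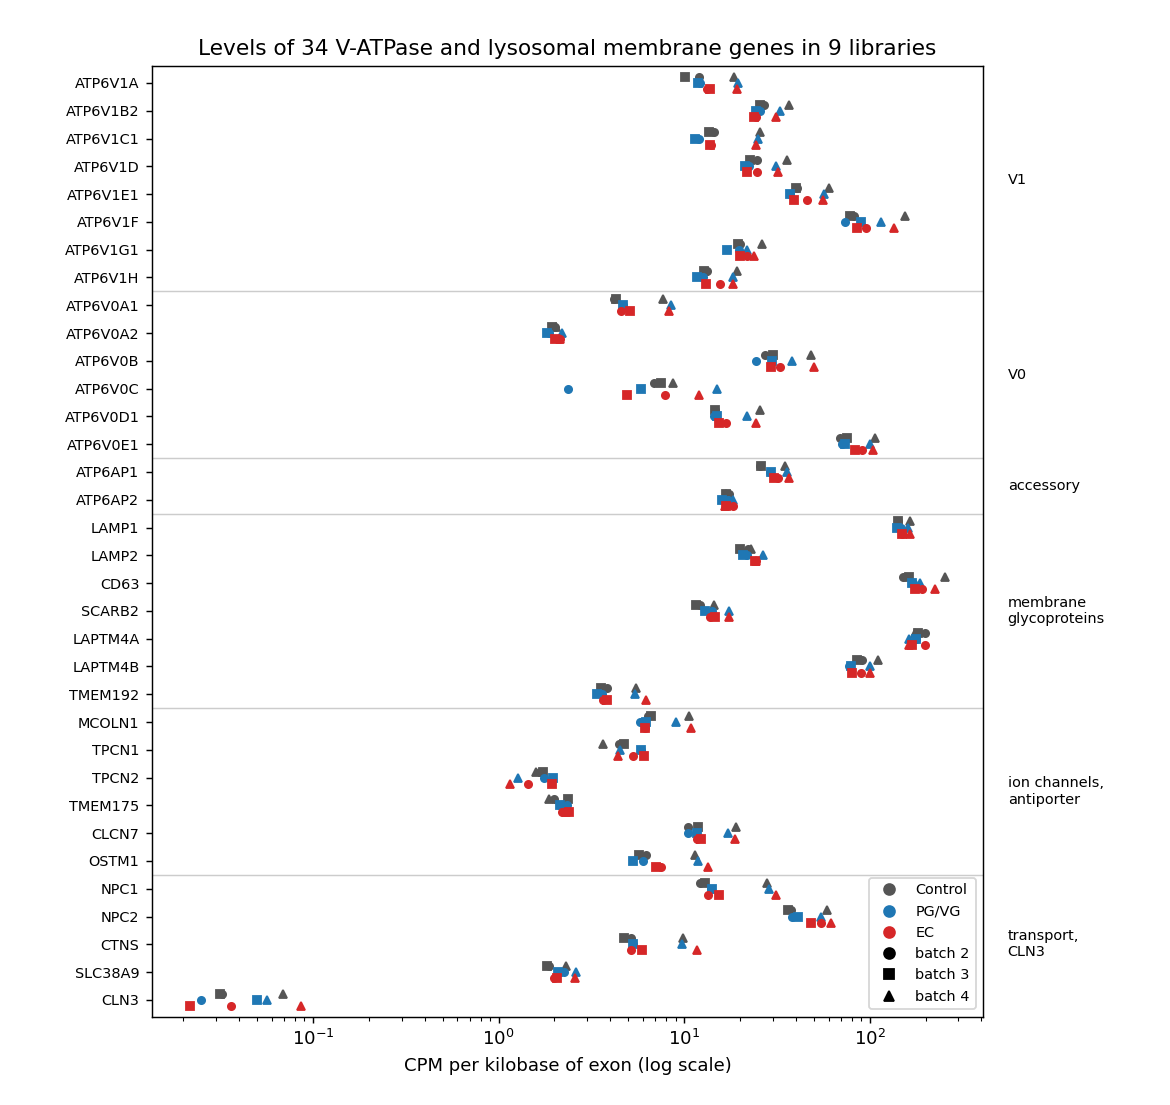
Level of each of the 34 genes in CPM per kilobase of exon (log scale) in the 9 libraries, with colour for the condition and symbol for the batch. CD63, LAPTM4A and LAMP1 lie at the top of the scale and CLN3 at the bottom, and for most V-ATPase subunits the triangles of batch 4 lie to the right of the other symbols.

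EC vs. control asks what the complete e-cigarette condensate did to these genes. Of the 34 members, 5 were differentially expressed (14.7%), against 13.5% of all genes tested in either direction, so the share of members was close to the background. All 5 were higher in EC, against 8.07% of all genes called in that direction. They were ATP6AP1, SCARB2, TPCN1, OSTM1 and NPC2, and their increases lay between 16.3% and 26.8%. Without batch in the model, 0 of 34 members were called by edgeR in each comparison, also at an unadjusted p under 0.05, and 16 genes of the whole table were called in EC vs. control. In bulk RNA, fewer cells with a transcript and less of it per cell cannot be told apart.

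The highest of these LFC values was that of NPC2, a soluble lysosomal protein that binds cholesterol and hands it to NPC1 (ENSG00000119655, chromosome 14, 74476192 to 74494177, GRCh38). Its level was 97.4, 93.7 and 152 CPM in control batches 2, 3 and 4, 98.5, 106 and 141 CPM in PG/VG, and 142, 125 and 160 CPM in EC. Every EC library was above the control library of its batch, but the conditions overlapped because control 4 was above EC 2 and EC 3. The LFC was 0.34 ± 0.082 (SE; edgeR adjusted p = 0.00712, n = 3). The differences within batches 2, 3 and 4 were 0.54, 0.41 and 0.07 on the log2 scale, and so the increase was small in batch 4. Against PG/VG, the LFC was 0.32 ± 0.081 (adjusted p = 0.0648), past the threshold in 3 of the 9 fits that left out 1 library. Without control replicate 2, control replicate 3 or EC replicate 2, the adjusted p of EC vs. control was 0.0591, 0.0851 and 0.0722.

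OSTM1, the partner subunit of the chloride/proton antiporter CLCN7 (ENSG00000081087, chromosome 6, 108029245 to 108165854), was at 83.9, 77.3 and 154 CPM in control, 80.9, 71.3 and 160 CPM in PG/VG, and 102, 95.8 and 182 CPM in EC. In all 3 batches EC was the highest of the conditions, whereas control and PG/VG lay close together. The LFC of EC vs. control was 0.28 ± 0.070 (adjusted p = 0.0111) and that of EC vs. PG/VG was 0.31 ± 0.070 (adjusted p = 0.0321), while PG/VG vs. control gave −0.036 ± 0.071 (adjusted p = 0.835). The increase over control was 0.28, 0.31 and 0.24 in batches 2, 3 and 4 on the log2 scale. It was past the threshold in 6 of the 9 fits that left out 1 library, and lost it without control replicate 2, control replicate 3 or EC replicate 3 (adjusted p = 0.0502, 0.0773 and 0.0654). CLCN7 itself, the antiporter, stood at 87.7, 99.1 and 159 CPM in control and at 97.4, 103 and 156 CPM in EC, with an LFC of 0.056 (adjusted p = 0.657).

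TPCN1, an endolysosomal cation channel (ENSG00000186815, chromosome 12, 113221050 to 113298585), was the member called in both treatments against control. It was at 39.1, 41.6 and 31.8 CPM in control, 51.1, 50.9 and 39.6 CPM in PG/VG, and 46.3, 52.8 and 38.3 CPM in EC. Each treated library was above the control of its batch, with batch 4 the lowest of each condition. The LFC was 0.29 ± 0.078 in EC vs. control (adjusted p = 0.0166) and 0.33 ± 0.078 in PG/VG vs. control (adjusted p = 0.0152). These comparisons share the control libraries. EC vs. PG/VG gave −0.046 ± 0.076 (adjusted p = 0.857). Both calls against control were kept in 5 of 9 fits that left out 1 library. They were lost without control replicate 2 (0.0764 and 0.0767 for EC and PG/VG) and without control replicate 3 (0.126 and 0.118). For EC the call was also lost without EC replicate 3 (0.0921) or EC replicate 4 (0.0628), and for PG/VG without PG/VG replicate 2 (0.157) or PG/VG replicate 4 (0.0633).

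SCARB2, also named LIMP-2, carries glucocerebrosidase to the lysosome (ENSG00000138760, chromosome 4, 76158737 to 76234536). Its level was 235, 225 and 280 CPM in control, 273, 251 and 340 CPM in PG/VG, and 266, 286 and 338 CPM in EC. Both treatments were above the control of the same batch in all 3 batches. The LFC was 0.27 ± 0.068 in EC vs. control (adjusted p = 0.0108) and 0.22 ± 0.068 in PG/VG vs. control (adjusted p = 0.0673), and EC and PG/VG differed by 0.050 ± 0.067 (adjusted p = 0.822). The EC call was lost without control replicate 3 (0.105) or EC replicate 3 (0.09).

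ATP6AP1, an accessory protein of the pump that takes part in its assembly (ENSG00000071553, chromosome X, 154428633 to 154436516), was at 145, 148 and 198 CPM in control, 164, 168 and 204 CPM in PG/VG, and 183, 174 and 209 CPM in EC. The order control, PG/VG, EC held in each batch. Its LFC was 0.22 ± 0.069 in EC vs. control (adjusted p = 0.0381) and 0.13 ± 0.069 in PG/VG vs. control (adjusted p = 0.287). The difference in batch 4 was 0.08, compared with 0.34 and 0.24 in batches 2 and 3. The EC call was kept in 4 of 9 fits that left out 1 library, and was lost without control replicate 2 (0.254), control replicate 3 (0.25), EC replicate 2 (0.179), EC replicate 3 (0.0929) or EC replicate 4 (0.0584). The other accessory protein, ATP6AP2, the prorenin receptor, had an LFC of 0.025 (adjusted p = 0.861).

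**Figure D2:**
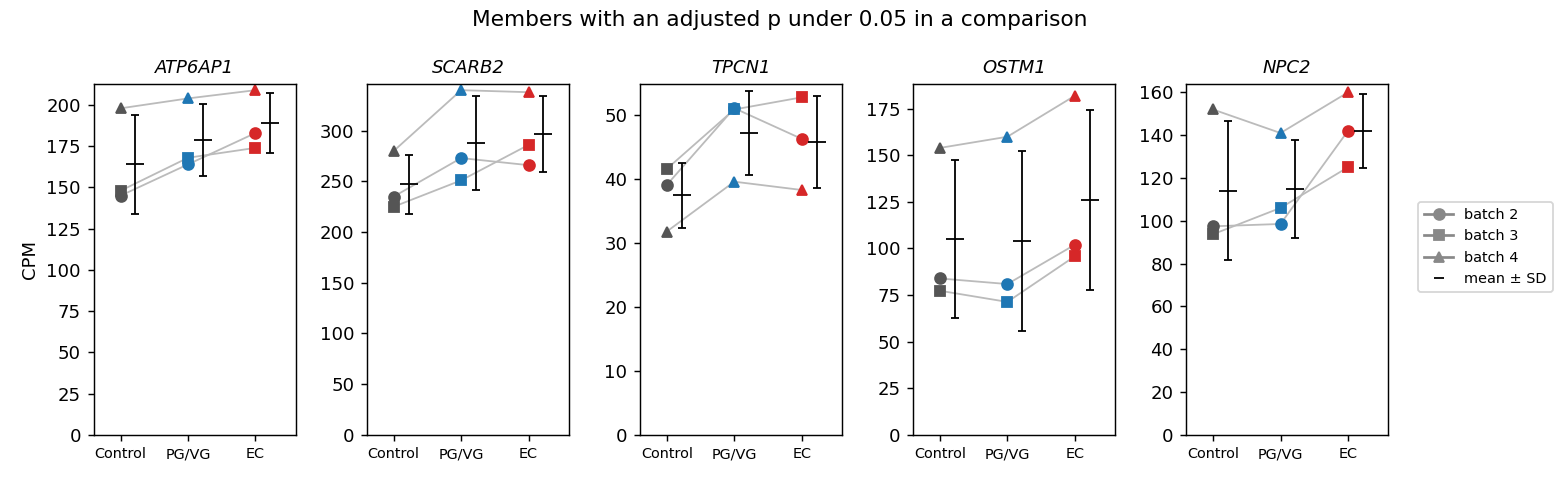
CPM of the 5 members with an adjusted p under 0.05 in at least 1 comparison, by condition, on axes that start at 0. Symbols are batches, grey lines join libraries of the same batch, and bars show the mean ± SD of 3 libraries. Within each batch the EC symbol is above the control symbol for all 5 genes, while the SD bars of the conditions overlap because batch 4 lies apart.

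Across the members the differences were small. The median LFC of EC vs. control was 0.0754, beside 0.00778 over all genes tested, with 27 members above 0 and 7 below. The medians of the differences within batches 2, 3 and 4 were 0.14, 0.0743 and 0.046. Members higher in EC in 3 of 3 batches numbered 12 (35.3%), against 24.6% of all genes. The members that came nearest to the threshold in size without passing were ATP6V1A, the catalytic A subunit of V1, at 0.21 (adjusted p = 0.0709), and NPC1, the membrane protein that exports cholesterol, at 0.19 (adjusted p = 0.0597). An unadjusted p under 0.05 was found for 12 members. The share of all genes under that value is not given here, so unadjusted counts, here and below, have no background to be read against.

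Of the 14 subunits of the pump itself, 0 were called by edgeR in each comparison, with 4 at an unadjusted p under 0.05 in each comparison against control and 3 between the treatments. The shares of all genes called were the 13.5%, 4.54% and 0.855% given for the members. DESeq2 with the batch also called 0 in each, against 10.8%, 4.47% and 1.09% of all genes. DESeq2 on counts adjusted by ComBat-Seq called 2 subunits for EC and 1 for PG/VG against control, and 1 between the treatments. These calls were ATP6V1A and ATP6V1B2 for EC, ATP6V1C1 for PG/VG, and ATP6V0B between the treatments. With ComBat-Seq, 19.2%, 10.8% and 4.09% of all genes were called in the same comparisons. With library size scaling only, edgeR called ATP6V1A, ATP6V0A1 and ATP6V0E1 in EC vs. control, and 14.7% of all genes. ATP6V0B was also called between the treatments without PG/VG replicate 3 (edgeR adjusted p = 0.0285) or EC replicate 3 (0.0427). The subunits had a median LFC of 0.0664 in EC vs. control. The V1 subunits had a median of 0.00983 and ran from −0.154 for ATP6V1B2 to 0.213 for ATP6V1A. The V0 subunits had a median of 0.087, and all 6 were above 0, up to 0.17 for ATP6V0E1. The median within batches fell on both sides of 0 for the 14 subunits, at 0.157, 0.0308 and −0.0668 in batches 2, 3 and 4. ATP6V1E1, for example, was at 128, 126 and 190 CPM in control and at 144, 123 and 177 CPM in EC, so that only batch 2 showed a higher value.

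The remaining groups were described by their medians. The 7 glycoproteins and related genes had a median LFC of 0.0744, with LAMP1 at 0.047 and LAMP2 at 0.16 (adjusted p = 0.692 and 0.142), and LAPTM4A and LAPTM4B at −0.073 and −0.086. The channels and the antiporter genes had a median of 0.103, in which MCOLN1, the calcium channel mutated in mucolipidosis, was at −0.039 and TPCN2 at −0.17 (adjusted p = 0.425). The 5 genes of cholesterol, cystine and amino acid handling with CLN3 had a median of 0.187, and the cystine exporter CTNS was at 0.19 (adjusted p = 0.165).

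PG/VG vs. control asks what the carrier alone did. TPCN1 was the only member called (2.94% of the 34, against 4.54% of all genes), and 8 had an unadjusted p under 0.05. The median LFC was −0.0348, beside 0.0134 over all genes, with 12 members above 0 and 22 below. Members lower in PG/VG in 3 of 3 batches numbered 11 (32.4%), against 19.9% of all genes, and those higher in 3 of 3 numbered 7 (20.6%), against 23.6%. Of the 11 lower ones, 6 were V1 subunits: ATP6V1B2, ATP6V1C1, ATP6V1D, ATP6V1E1, ATP6V1G1 and ATP6V1H. The V1 subunits had a median of −0.125, with ATP6V1C1, which helps join the sectors, at −0.18 (adjusted p = 0.175). The largest uncalled differences were those of SCARB2, given above, and of the arginine sensor SLC38A9, at 0.21 (adjusted p = 0.214).

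EC vs. PG/VG sets the condensate with nicotine and flavour against that of the carrier liquid. OSTM1 was the only member called (2.94%, against 0.855% of all genes). That call was kept in 3 of 9 fits that left out 1 library (adjusted p up to 0.222), and was lost after thinning to the smallest library (0.0637) and without batch 4 (0.0525). The median LFC was 0.107, beside 0.00238 over all genes, and 30 of the 34 members were above 0. Members higher in EC than in PG/VG in 3 of 3 batches numbered 11 (32.4%), against 16.8% of all genes. The 14 pump subunits had a median of 0.141, with 13 above 0 and none called, and the medians within batches 2, 3 and 4 were 0.219, 0.101 and −0.00922. The largest uncalled differences were those of NPC2, given above, and of ATP6V0B, a proton-carrying subunit of the V0 ring, at 0.27 (adjusted p = 0.141). ATP6V0B was at 79.3, 96.3 and 123 CPM in PG/VG and at 106, 94.8 and 163 CPM in EC, higher in batches 2 and 4 and nearly level in batch 3.

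**Figure D3:**
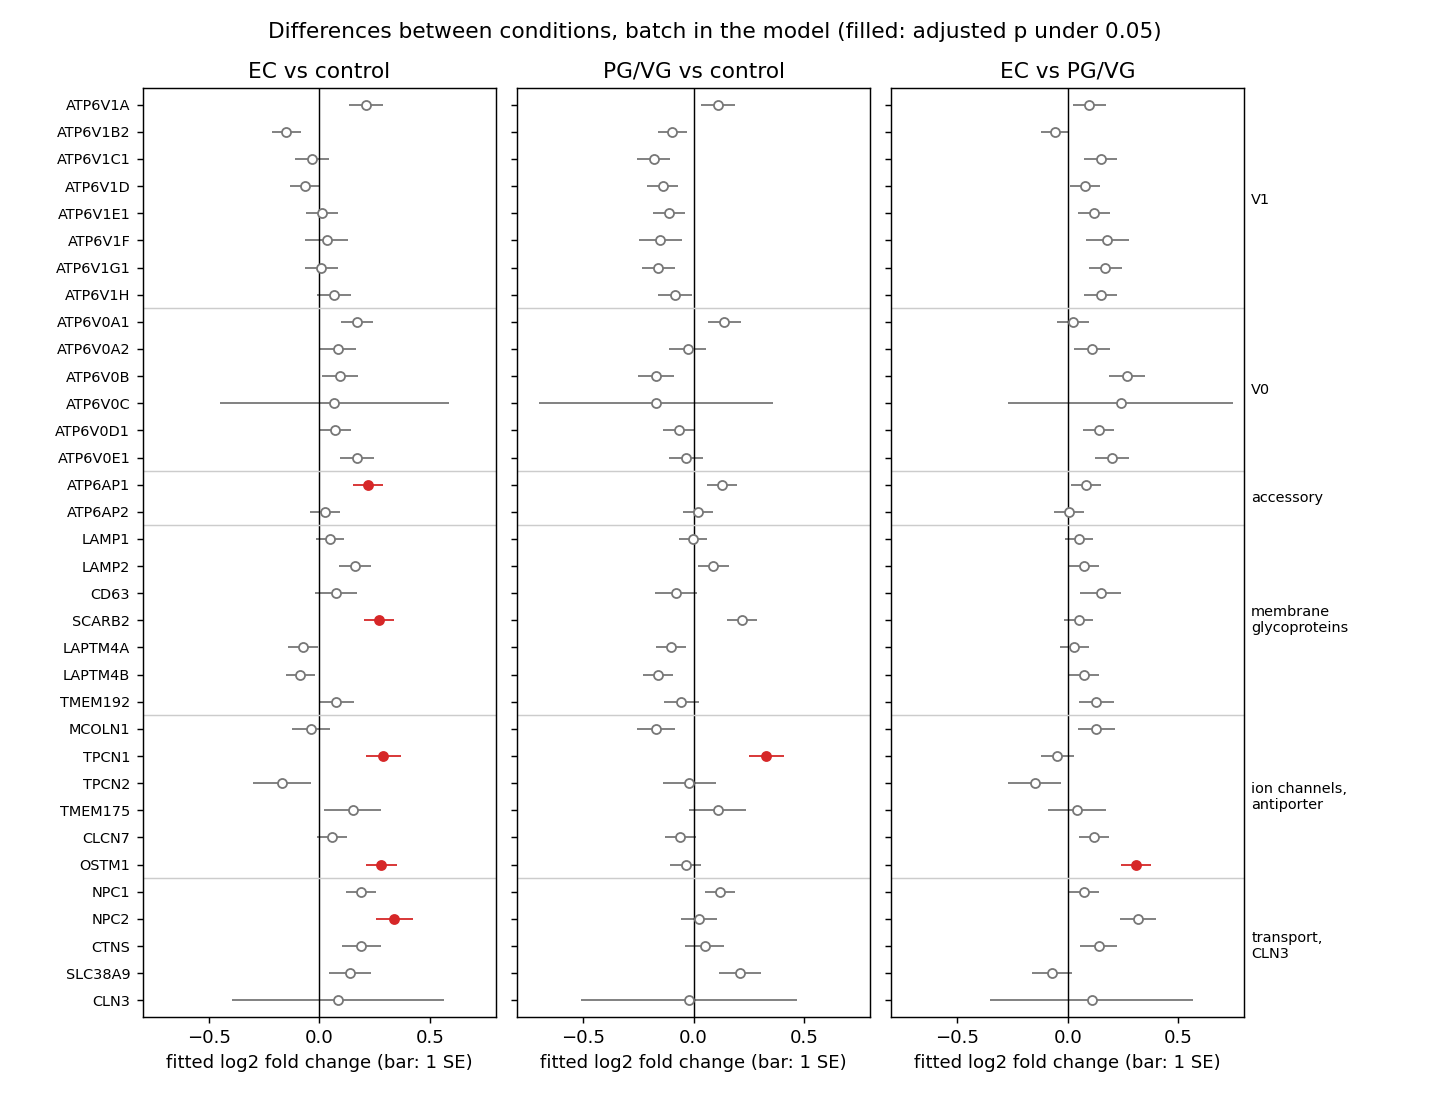
Fitted LFC of each member in the 3 comparisons with bars of 1 SE, ordered by role; filled symbols have an adjusted p under 0.05. The filled symbols are ATP6AP1, SCARB2, TPCN1, OSTM1 and NPC2 in EC vs. control, TPCN1 in PG/VG vs. control and OSTM1 in EC vs. PG/VG, and the bars of ATP6V0C and CLN3 are the widest.

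Batch 4 stood apart from batches 2 and 3 across most of the set. For 24 of the 34 members (70.6%), all 3 libraries of batch 4, whatever the treatment, were above all 6 libraries of batches 2 and 3, against 14.5% of all genes tested. CLN3 is among the 24, and because it met the count minimum only through batch 4, it is no evidence of this order. No member showed the opposite order, against 14.6% of all genes. With CPM scaled by library size only, a setting added after seeing the data, the count was 25 members against 16.6% of all genes. The ratio of the mean CPM of batch 4 to that of batches 2 and 3 had a median of 1.39 over the members and 0.996 over all genes, whose percentiles 5 and 95 were 0.598 and 1.73. The order was also frequent in related lists described further on. It held for 7 of 12 Ragulator and Rag genes, whose median ratio was 1.47, for 21 of 48 other lysosomal membrane genes (1.16) and for 5 of 17 other V-ATPase genes (1.11). The opposite order held for 1, 1 and 6 genes of these lists, so the other V-ATPase genes were split.

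All 8 V1 subunits and 5 of 6 V0 subunits had this order, with median ratios of 1.45 and 1.58. ATP6V1C1 had a ratio of 1.89, with 85.3, 79.7 and 150 CPM in control, 70.7, 66.6 and 147 CPM in PG/VG and 82, 81 and 143 CPM in EC. The exception among the subunits was ATP6V0A2, at 1.08. The highest ratios were those of CLN3 at 2.15, on the few reads given above, NPC1 at 2.14, ATP6V0C at 2.02 and CTNS at 1.99. The place of CLN3 is not independent of the choice of members, since it met the count minimum only through batch 4. NPC1 was at 118, 125 and 270 CPM in control, 135, 137 and 278 CPM in PG/VG, and 131, 150 and 304 CPM in EC. OSTM1 had a ratio of 1.94 and CLCN7 1.60.

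Other membrane genes had ratios nearer to 1 or below it. LAMP1 had a ratio of 1.13, LAMP2 1.11 and ATP6AP2 1.01. LAPTM4A had 0.911, and the channels TPCN1, TPCN2 and TMEM175 had 0.779, 0.764 and 0.950. Of the genes with CACGTG in the promoter window, ATP6V1G1, ATP6V0B, ATP6V0D1, LAMP1, MCOLN1, CLCN7 and CLN3 had all batch 4 libraries above the rest, 7 of 8, and so did 11 of the 19 members with an entry but without the core. This difference was not tested, and CLN3, among the 7, had met the count minimum only through batch 4. CD63, the remaining gene with the core, did not show that order. Its PG/VG library of batch 4 was at 452 CPM and EC of batch 2 at 461 CPM. The core was in the windows of 0 of the 5 genes called in EC vs. control, at numbers too small to set against the 8 of 27 members that hold it. The summed level of the 34 members was 4333, 4266 and 5912 CPM in control, 4346, 4286 and 5626 CPM in PG/VG and 4766, 4571 and 5860 CPM in EC, so that batch 4 was the highest in each condition. Each batch holds all 3 conditions, and the batch term removes its mean difference from the comparisons. In a fit without the 3 libraries of batch 4, added after seeing the data, 3 members were called in EC vs. control, namely NPC2, ATP6AP1 and OSTM1 (LFC 0.47, 0.28 and 0.28), and SCARB2 and TPCN1 were not (adjusted p = 0.0687 and 0.072). Of all genes, 7.85% were called in that fit.

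**Figure D4:**
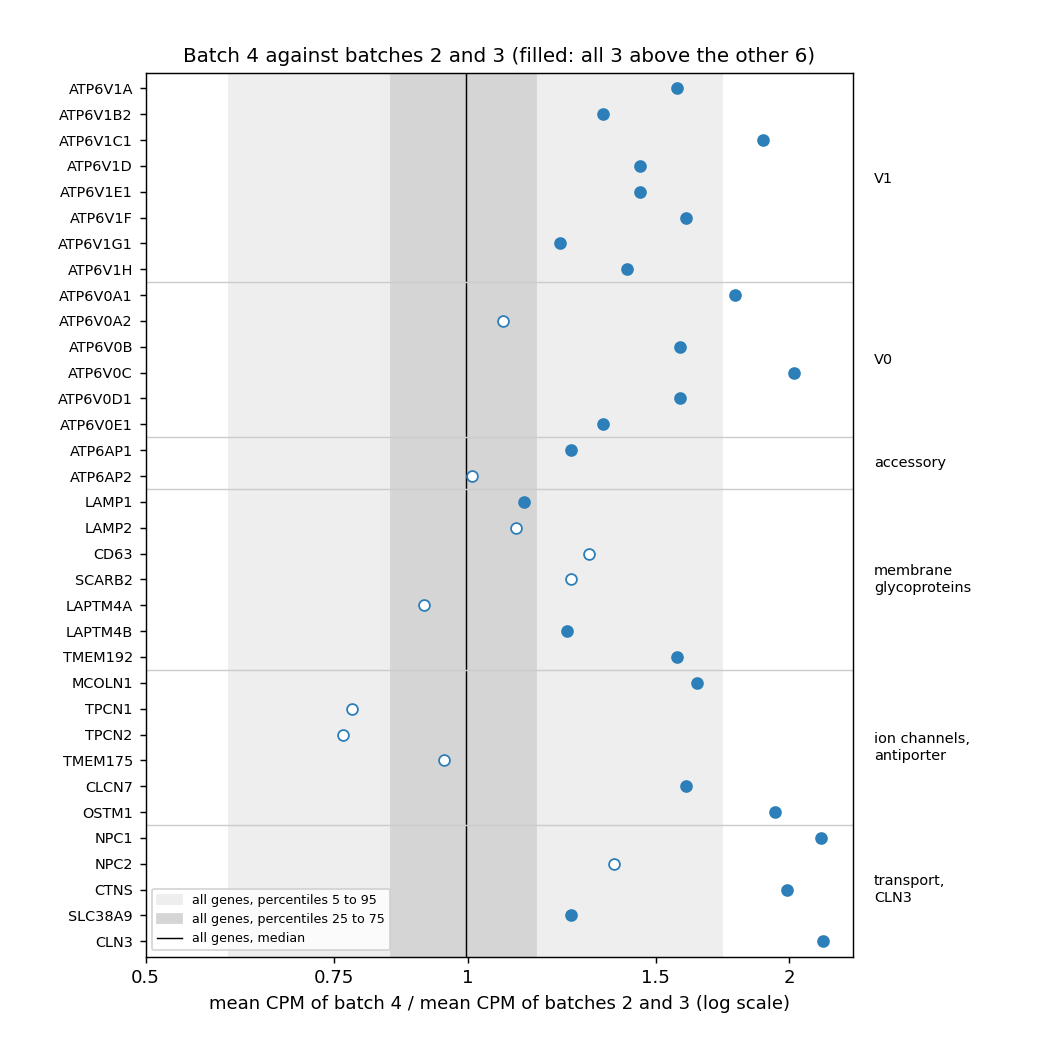
Ratio of mean CPM in batch 4 to mean CPM in batches 2 and 3 for each member (log scale), filled where all 3 libraries of batch 4 were above the other 6. Grey bands are the percentiles 5 to 95 and 25 to 75 of all genes, and the members with filled symbols lie between 1.13 and 2.15.

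Other genes of the same machinery were taken from lists of general knowledge, drawn up with earlier results of these data known. Their shares of calls describe these lists and cannot test for an excess over all genes. Among 22 other V-ATPase isoforms, assembly factors and associated proteins, 17 were tested and 0 were called in each comparison by edgeR, and 0 by DESeq2 with the batch. ComBat-Seq and DESeq2 called 1, VMA21, in PG/VG vs. control, against 10.8% of all genes. Their median LFC in EC vs. control was 0.0831, with 0 at an unadjusted p under 0.05. In PG/VG vs. control 5 and in EC vs. PG/VG 2 of the 17 were under that value. Of 54 other lysosomal membrane genes, 48 were tested and 11 were called higher in EC than in control (22.9%, against 8.07% of all genes in that direction) and 4 higher in PG/VG (8.33%, against 4.54% of all genes in either direction), with none lower. In EC vs. PG/VG, 0 were called by edgeR or by DESeq2 with the batch, 7 by ComBat-Seq and DESeq2, and 10 had an unadjusted p under 0.05 in edgeR. ComBat-Seq and DESeq2 called 4.09% of all genes in that comparison, and DESeq2 with the batch 1.09%.

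TTYH3, a membrane protein of the tweety family, was at 94.5, 110 and 171 CPM in control, 136, 144 and 201 CPM in PG/VG, and 135, 146 and 231 CPM in EC, with LFCs of 0.45 for EC and 0.38 for PG/VG against control (adjusted p = 0.000174 and 0.00295). HGSNAT, an acetyltransferase of heparan sulfate breakdown, had 0.46 and 0.44 (0.000499 and 0.00263), and the heme transporter SLC48A1 0.45 and 0.37 (0.00411 and 0.0358). The PG/VG call of SLC48A1 was kept in 3 of 9 fits that left out 1 library (adjusted p up to 0.196) and lost with DESeq2 with the batch (0.0548), after thinning (0.063) and without batch 4 (0.0854), and its EC call was lost without EC replicate 4 (0.0519) or batch 4 (0.0546). The PG/VG call of HGSNAT was lost without PG/VG replicate 2 (0.0575). The sialic acid exporter SLC17A5 rose by 0.51 in EC (0.00267) and the channel MCOLN3 by 0.52 (0.00286), while in PG/VG they were at 0.16 and 0.21 and did not pass.

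The Ragulator complex and the Rag GTPases hold mTORC1, the growth-controlling kinase, at the lysosome in contact with the V-ATPase. All 12 genes of that list were tested, and 2 were called in EC vs. control (16.7%, close to the 13.5% of all genes) and 1 in EC vs. PG/VG (8.33%, against 0.855%). In PG/VG vs. control, 0 were called by edgeR, with 4 at an unadjusted p under 0.05, 0 by DESeq2 with the batch and 4 by ComBat-Seq and DESeq2. That last setting called 10.8% of all genes, and DESeq2 with the batch 4.47%. RRAGD, a Rag GTPase, was at 9.85, 8.36 and 15.8 CPM in control, 11.3, 10.0 and 17.7 CPM in PG/VG, and 16.4, 16.0 and 27.9 CPM in EC. It was highest in EC in every batch. Its LFC was 0.83 ± 0.10 in EC vs. control (adjusted p = 1.83e-05) and 0.62 ± 0.10 in EC vs. PG/VG (adjusted p = 0.00189), and both calls were kept in all 9 fits that left out 1 library. RRAGB, another Rag GTPase, had 0.56 in EC vs. control (adjusted p = 0.00859) and 0.43 in PG/VG vs. control (adjusted p = 0.0804). Its EC call was lost without control replicate 3 (0.0605), EC replicate 2 (0.0646) or batch 4 (0.0574).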

How the data were processed

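BEAS-2B RNA from 3 libraries per condition was analysed from the table deposited by the authors, which holds raw read counts for 63187 genes. Per the labels and the study's methods, the authors used fastp for trimming and STAR for alignment to GRCh38.p12, and counted them on Ensembl exons with featureCounts (Subread 2.0.4), without reads that mapped or overlapped more than once. The strand setting is not given in the sources used here.

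The 16030 genes that reached 10 counts in 3 or more libraries were tested with edgeR 4.0.16 in R 4.3.3, with TMM normalization and robust quasi-likelihood tests of a model with condition and batch. Benjamini-Hochberg adjustment covered all genes tested in each comparison, at 0.05. SE is the absolute LFC divided by the square root of F. CPM used TMM-scaled library sizes, and differences within batches were taken on log2(CPM + 0.5). The tests were tried on simulated counts, in which the share of false calls ran above the nominal level in most runs, so calls near the threshold are weakly supported. Library totals of 16168260 to 24917838 set the sampling noise of the counts. Same-numbered libraries of different conditions had correlated deviations from the condition means (0.334 to 0.707 in 9 pairs, against −0.539 to 0.426 in 18 pairs of different numbers). All negative values involved batch 4. Between batches 2 and 3, pairs of different numbers gave 0.28 to 0.426, and same-numbered pairs of these batches 0.334 to 0.399. The correlations set batch 4 apart but cannot show that libraries 2 and 3 pair by number. The number was kept as the replicate block because the labels give it as the batch. Replicates differed by more than sampling noise in every pair.

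The 34 members and the lists of other lysosomal genes and cell type markers were chosen with earlier results of these data known. All members may be named. Full statistics are given for members past the threshold and the 2 largest uncalled members of each comparison, and from each other list at most 5 genes with the smallest adjusted p. KRT8, KRT18 and KRT7, which this rule does not cover, were named after their values were seen. Gene positions and exon overlaps came from GENCODE on GRCh38, and promoter windows from RefSeq. Alternatives were no replicate block, RLE or library size scaling, other count filters, DESeq2 1.42.0 with batch, ComBat-Seq (sva 3.50.0) with DESeq2, only the 2 groups compared, thinning to the smallest library, leaving out each library, and leaving out batch 4.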

Additional observations from a re-analysis of the deposited data

Results flagged for a closer look

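OSTM1 responded differently to EC and PG/VG by the direct comparison of the treated groups, with an LFC of 0.31 (edgeR adjusted p = 0.0321, higher in EC in 3 of 3 batches). The call was kept in 3 of 9 fits that left out 1 library, and was lost without batch 4 (LFC 0.38, adjusted p = 0.0525). RRAGD, a Rag GTPase outside the 34 members, also differed between the treatments, with an LFC of 0.62 (adjusted p = 0.00189), and kept this call in 9 of 9 such fits and without batch 4 (0.60, adjusted p = 0.046).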

How the results depend on the processing

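Without the replicate block, 0 members were called in each of the 3 comparisons and 0 genes of the other lists. In EC vs. control, 5 members were called in the reported fit, 10 with library size scaling only, 8 with ComBat-Seq and DESeq2, 3 without batch 4, and 0 to 5 when 1 library was left out, with 0 without control replicate 3, 1 without control replicate 2 or EC replicate 3, and 3 without EC replicate 4. The shares of all genes called moved too, from 13.5% to 14.7% with library size scaling, 19.2% with ComBat-Seq and 7.85% without batch 4. They were 7.27% and 8.41% without control replicates 3 and 2, and 8.8% and 8.22% without EC replicates 3 and 4. In PG/VG vs. control, 1 member became 2 with library size scaling, 4 with ComBat-Seq, 2 with only the 2 groups compared, 0 without batch 4, and 0 to 2 when 1 library was left out. The share of all genes went from 4.54% to 5.27%, 10.8%, 7.69% and 2.09% in the first 4 of these settings. It ran from 1.21% to 6.84% when 1 library was left out. In EC vs. PG/VG, 1 became 2 with library size scaling, no filter, DESeq2 or only the 2 groups, 3 with ComBat-Seq, 0 after thinning or without batch 4, and 0 to 2 when 1 library was left out. Of all genes, 0.855% were called there in the reported fit, 2.01% with only the 2 groups and 4.09% with ComBat-Seq. The share was 1.1% with library size scaling, 0.877% with no filter and 1.09% with DESeq2. When 1 library was left out, it ran from 0.202% to 1.31%. After thinning and without batch 4 it was 0.604% and 0.517%. Of the other lists, 17, 48 and 12 genes were tested in the reported fit, which called 13, 4 and 1 in the 3 comparisons. In EC vs. control, 8 were called without batch 4 and 7 to 13 with 1 library left out, where 7.27% to 13.6% of all genes were called. In PG/VG vs. control, 12 were called with ComBat-Seq and 1 to 6 with 1 library left out. In EC vs. PG/VG, 11 were called with ComBat-Seq and 2 with library size scaling, no filter or only the 2 groups. The other shares of all genes are those given above. The cause of these shifts was not tested.

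Library size scaling moved the median LFC of all genes in EC vs. control from 0.00778 to 0.0682 and that of the members to 0.136. The members' median ran from 0.009, without EC replicate 2, to 0.102 with 1 library left out. In PG/VG vs. control it was −0.008 with library size scaling, −0.054 after thinning, and −0.057 to −0.000 with 1 library left out. Signs turned only for uncalled differences near 0, namely SCARB2 in EC vs. PG/VG (−0.0058 to 0.096 with 1 library left out), OSTM1 (−0.10 to 0.01) and NPC2 (−0.038 to 0.13) in PG/VG vs. control, and TPCN1 in EC vs. PG/VG after thinning (0.0007). Of 570 recomputed values for 30 named differences, 478 kept direction and side of the threshold, 65 lost the call, 20 gained it and 7 changed sign. With a median SE of 0.075 over the members in EC vs. control, changes of the size of the median LFC were not detectable gene by gene.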
